A study of Mus musculus with 12 samples.

Results

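Ribosome-bound RNA from the cochlea, the organ of hearing, was compared with that from the vestibule, the organ of balance, in newborn mice that were heterozygous for Gfi1Cre. Of the 12 libraries of the series, 6 entered the comparison: 3 cochlear and 3 vestibular libraries of genotype Gfi1Cre/+;RiboTagHA/HA at postnatal day 0 to 1. All 6 therefore carried 1 unmodified copy of Gfi1, Cre on the other copy and the HA-tagged ribosomal protein allele on both chromosomes. The same organs of Gfi1Cre/Cre;RiboTagHA/HA mutants, in which both copies of Gfi1 carry Cre, gave 6 libraries that were used as a second set. Immunoprecipitation of the HA tag takes ribosomes out of cells that have had active Cre, so the RNA is enriched for cells with a history of Gfi1 expression and is not free of others. The series names the triplicates as independent biological samples, and the number of animals behind each is unknown here. Cochlear libraries were made with the NuGEN Ovation Ultralow kit and vestibular libraries with the NEBNext Ultra Directional kit, so organ and kit cannot be told apart for any gene below. For this reason a gene was called only at 8-fold or more (log2 difference of 3 or more on the log2(CPM + 1) scale), with a Benjamini-Hochberg adjusted p under 0.05 in limma and all 3 libraries of an organ above all 3 of the other. CPM is a read count scaled by the total counted reads of its library, and every difference is cochlea minus vestibule.

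Genes entered if both organs listed them and at least 1 organ had 1 CPM or more in all 3 libraries, which left 17115 of the 23427 genes listed in both. Of these, 13707 reached that level in both organs, 2399 in the cochlea alone and 1009 in the vestibule alone. The last genes inside the limit had a lowest library of 1.01 CPM in their better organ (Gp1bb, Adora2a and 2700033N17Rik), and the first genes outside had 0.987 CPM (Gm17344, Hist1h4h and Gm16263).

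Hair cells turn the deflection of a bundle of stereocilia into transmitter release. In the cochlea they form a row of inner hair cells, which drive the auditory nerve, and rows of outer hair cells, which amplify sound through the motor protein prestin, under a tectorial membrane. The vestibular maculae and cristae hold other hair cell types, with a cupula or calcium carbonate otoconia above them. Vestibular hair cells keep a kinocilium with an axoneme, while cochlear hair cells lose it during postnatal maturation. At birth cochlear hair cells are still immature, and inner hair cells are ahead of outer ones. In tissue RNA of this kind, fewer cells of a type and less RNA per cell cannot be told apart.

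Depth was 7531518 to 9363796 reads per library in the heterozygous cochlea and 22401376 to 29370267 in the heterozygous vestibule, so that 3 reads corresponded to 0.320 to 0.398 CPM and 0.102 to 0.134 CPM. Rank correlations over the 17115 genes were 0.966 to 0.990 between libraries of an organ and 0.686 to 0.776 between organs (Spearman, across genes, which are not independent replicates). The first principal component held 90.1% of the variance and parted the organs, and the second held 4.73%, with vestibular replicate 1 at one end at 43.5 against -31.7 to 9.77 for the others. Reads outside the listed genes made up 0.684% of vestibular replicate 1 and 0.123% and 0.127% of replicates 2 and 3. Among the 192 genes with 50% or more of their exon bases opposite another gene's exons, 25 (13.0%) were at least 4-fold higher in vestibular replicate 1 than in the mean of the other 2, and none was 4-fold lower. Among the 11960 genes with no such overlap, 11 (0.092%) were higher by that much. Results are therefore given without that library where it changes a call, and genes that share 10% or more of their exon bases are named as uncertain.

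Of the 17115 genes, 551 were called higher in the cochlea (3.22%) and 464 higher in the vestibule (2.71%). At any size, 34.6% passed the test with higher levels in the cochlea and 38.3% with higher levels in the vestibule, where to pass is an adjusted p under 0.05 in limma with the libraries of the organs apart. With no test, 36.7% and 40.5% of genes had the libraries of the organs apart, higher in the cochlea and in the vestibule. A share of members that pass is read against these percentages. By rank within each library, 548 of the 551 and 454 of the 464 moved by 25 percentile points or more with no overlap of libraries. Without vestibular replicate 1, 500 and 399 of these calls were kept. Vestibular calls were more frequent with exon overlap on the opposite strand. They made up 2.43% of genes with none, 4.41% at 10 to under 50% and 13.5% (26 of 192) at 50% or more. Cochlear calls made up 3.53%, 2.37% and 3.13% of these classes. Of the 26 vestibular calls, 6 were lost without vestibular replicate 1. Exon bases shared at 10% or more were found in 62 cochlear and 110 vestibular calls. The number of calls depends on the pseudocount: with 0.25 CPM added in place of 1 there were 1296 and 707, and with 4 CPM there were 124 and 208. The called sets differed in kind. Protein-coding genes made up 182 of 551 (33.0%) in the cochlea and 419 of 464 (90.3%) in the vestibule, against 83.5% of all genes, and 171 cochlear and 0 vestibular calls were unverified transcripts (the TEC class of the annotation).

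**Figure D1:**
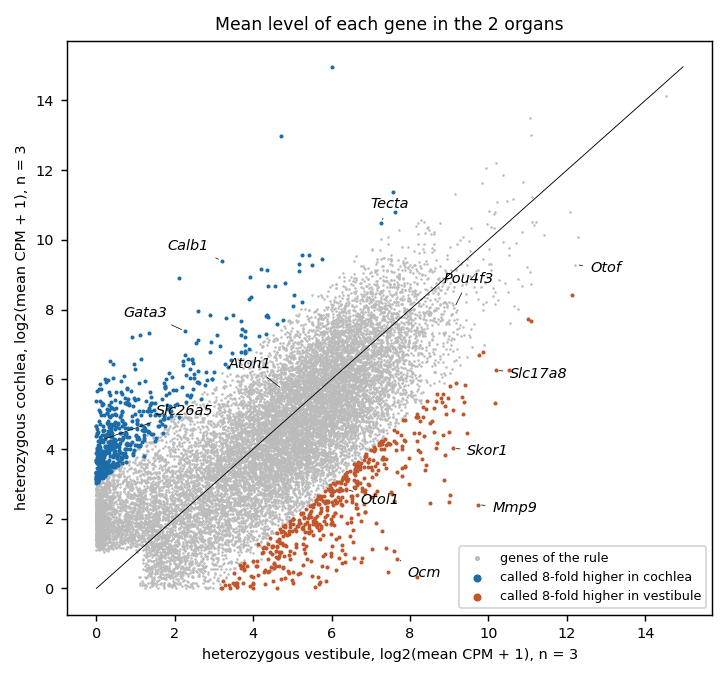
Mean level of the 17115 genes in heterozygous cochlea (vertical) and vestibule (horizontal), each as log2(mean CPM + 1) over 3 libraries, with the line of equal levels. Blue points are the 551 genes called 8-fold or more higher in the cochlea and orange points the 464 called higher in the vestibule; genes named in the text are labelled.

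Base composition moved with the difference. The median GC content of the longest transcript was 42.8% for genes called higher in the cochlea and 55.9% for genes called higher in the vestibule, against 49.2% for all. In the 20% of genes with the lowest GC the median log2 difference was 1.02, with 297 genes called higher in the cochlea and 19 in the vestibule. In the 20% with the highest GC it was -1.33, with 12 and 267. A second value was therefore computed for every gene after a smooth trend over GC content and exon length had been taken off, called the corrected difference below. With it 345 genes were called higher in the cochlea and 263 in the vestibule (2.02% and 1.54% of 17102), among them 242 and 187 of the calls made without it. Among genes named below, Gbx2, Cyba, Noxo1, Fst, Rorb, Bsnd, Ebf2, Elavl2, Stmn2, Scn9a, Drc7, Cfap73 and Ocstamp also lost the 8-fold call with it, beside those whose corrected value is printed. Kit and organ cannot be told apart as its source.

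**Figure D2:**
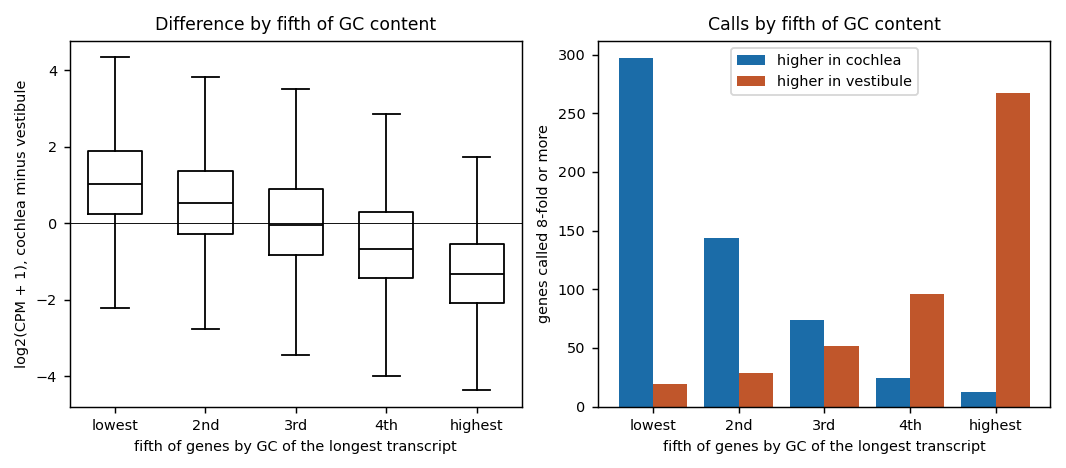
Left, log2(CPM + 1) difference of cochlea minus vestibule for genes in 5 classes of GC content, each of 20% of genes (box, quartiles; line, median; whiskers, the farthest value within the usual limits of a box plot, with points beyond not drawn). Right, number of genes called 8-fold or more in each class. Medians run from 1.02 in the lowest class to -1.33 in the highest, and the calls change sides with them.

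The 15 largest cochlear differences of the protein-coding genes open to naming included Pkhd1l1, Calb1, Gata3 and Itga8. Pkhd1l1, which encodes a large protein of the stereocilia coat (chromosome 15, 44457494 to 44601369, plus strand on GRCm38), stood at 615, 323 and 510.3 CPM in the 3 cochlear libraries and at 2.81, 2.94 and 4.15 CPM in the 3 vestibular ones. The log2 difference was 6.78 (SE 0.24) (limma, Benjamini-Hochberg adjusted p = 4.93e-08), or 5.12 corrected. Calb1, the calcium buffer calbindin-D28k (chromosome 4, 15881264 to 15908064, plus strand), stood at 996, 458 and 574 CPM in the cochlea and 9.24, 7.47 and 7.90 CPM in the vestibule, a difference of 6.13 (SE 0.25). Both genes were many times higher in every cochlear library than in any vestibular one, with replicate 1 the highest and replicate 2 the lowest cochlear library. Gata3, a zinc finger transcription factor needed for growth of the cochlear duct and its nerve (chromosome 2, 9857078 to 9890034, minus strand), stood at 194, 149 and 154 CPM in the cochlea and 4.15, 4.19 and 3.03 CPM in the vestibule. Its difference was 5.12 (SE 0.19), or 5.30 corrected, and its mean rank went from the 22.3 percentile of genes in vestibular libraries to the 92.7 in cochlear ones. Itga8, the integrin alpha 8 subunit, stood at 507, 515 and 449.7 CPM in the cochlea against 8.53, 18.3 and 15.6 CPM.

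Several of the other genes among the 15 largest were near the detection limit in the vestibule. B3galt2, a galactosyltransferase gene, stood at 84.5, 93.6 and 80.2 CPM in the cochlea and at 0.179, 0.713 and 0.170 CPM in the vestibule (6.03 (SE 0.24)). Nr2e1, an orphan nuclear receptor gene known from neural stem cells, stood at 69.9, 88.8 and 33.6 CPM against 0.223, 0.671 and 0.102 CPM (5.53 (SE 0.35)). Rasgrf1, a Ras exchange factor gene, had tight cochlear values of 65.04, 69.3 and 69.5 CPM against 0.0893, 1.51 and 0.306 CPM (5.49 (SE 0.31)). In these genes the lowest cochlear library lay far above the highest vestibular one, while the vestibular values rest on few reads. Cubn, the endocytic receptor cubilin, differed by 5.45 (SE 0.21), the phospholipase receptor gene Pla2r1 by 5.19 (SE 0.27), and Tigit, a checkpoint receptor gene of lymphocytes, by 5.11 (SE 0.31). The adhesion receptor gene Adgrb3 (5.05 (SE 0.30)), the germ cell gene Tex15 (5.001 (SE 0.24)) and Tmem252 (4.75 (SE 0.33)) were also in the set, as was Dcx. Dcx, which encodes the microtubule protein doublecortin of young neurons, varied most, at 502, 1014 and 198 CPM in the cochlea and 9.82, 38.1 and 4.53 CPM in the vestibule, with the largest standard error of the 15 (5.13 (SE 0.68)). All 15 stayed past 8-fold with the corrected difference, the lowest being Tex15 at 3.16, and without vestibular replicate 1.

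**Figure D3:**
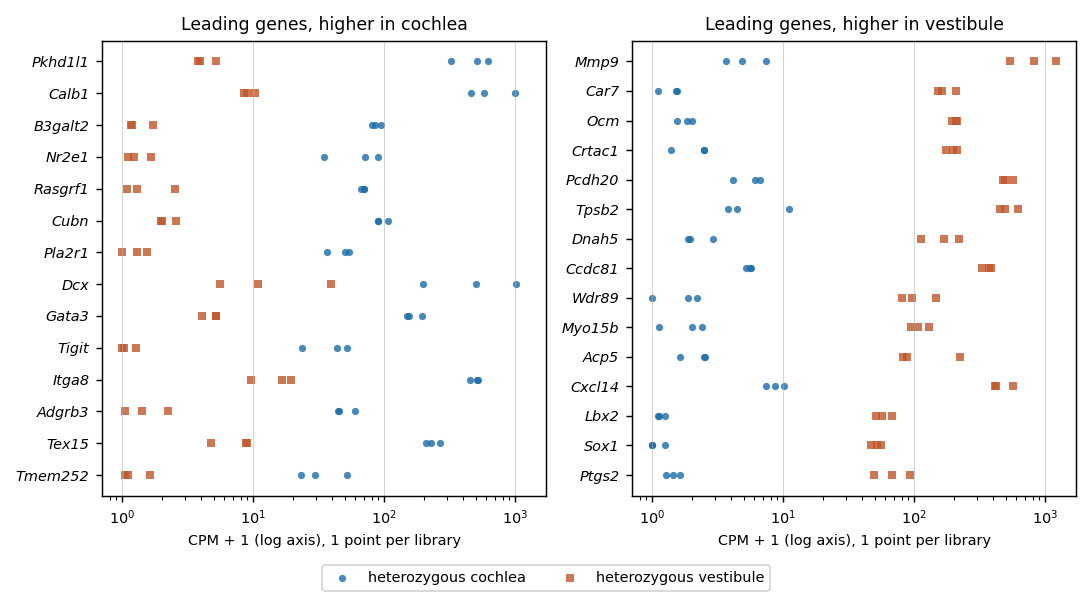
Values of the 6 heterozygous libraries (CPM + 1, log axis) for genes among the 15 largest differences in each direction, of called protein-coding genes that share under 10% of their exon bases. Each blue circle is a cochlear and each orange square a vestibular library; in every row the organs are apart, and the widest spread within an organ is that of Dcx.

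Among called genes the highest cochlear levels belonged to a different set. Tecta, the alpha-tectorin of the tectorial membrane (chromosome 9, 42329619 to 42399929, minus strand), stood at 1485, 1477 and 1343 CPM in the cochlea and 105, 178 and 174 CPM in the vestibule (3.27 (SE 0.22), corrected 3.62). Cdh1, the epithelial adhesion molecule E-cadherin, stood at 553, 674 and 665 CPM against 36.6, 38.8 and 29.1 CPM (4.14 (SE 0.16), corrected 4.45). Epha7, an ephrin receptor gene, stood at 717, 793 and 758 CPM against 25.5, 52.5 and 47.7 CPM (4.20 (SE 0.24), corrected 2.96). The zinc finger genes Zbtb20 (3.80, corrected 1.66) and Zfp871 (3.68, corrected 2.11) and the GTPase regulator gene Rabgap1l (3.82, corrected 1.25) passed 8-fold, but their corrected differences did not. Cdh1 and Tecta thus kept their size after the correction, Epha7 fell just under 8-fold, and the 3 others came to between 1.25 and 2.11.

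The 15 largest vestibular differences chosen in the same way included Ocm, Car7, Pcdh20 and Ccdc81. Ocm, the calcium buffer oncomodulin (chromosome 5, 144019804 to 144026670, minus strand), stood at 209, 206 and 192 CPM in the vestibule and at 1.02, 0.531 and 0.854 CPM in the cochlea, a log2 difference of -6.83 (SE 0.19) (limma, Benjamini-Hochberg adjusted p = 2.10e-08). Oncomodulin marks outer hair cells of the older cochlea and hair cells of the striola, the central zone of the vestibular maculae. Car7, a carbonic anhydrase gene (chromosome 8, 104534689 to 104550343, plus strand), stood at 208, 151 and 162 CPM against 0.508, 0.531 and 0.107 CPM (-6.98 (SE 0.23)). Pcdh20, a protocadherin gene, stood at 475, 493 and 569 CPM against 5.59, 5.05 and 3.10 CPM (-6.55 (SE 0.19)), and Ccdc81, a coiled-coil gene, at 327, 372 and 384 CPM against 4.19, 4.65 and 4.59 CPM (-6.04 (SE 0.15)). For Ocm, Pcdh20 and Ccdc81 the highest vestibular library was 1.09, 1.20 and 1.17 times the lowest, and the lowest was far above every cochlear library. The axonemal dynein gene Dnah5 (-6.19 (SE 0.28)), Crtac1 (-6.57 (SE 0.25)), Wdr89 (-6.03 (SE 0.33)), the myosin gene Myo15b (-5.95 (SE 0.29)), the chemokine gene Cxcl14 (-5.74 (SE 0.18)), the homeobox gene Lbx2 (-5.64 (SE 0.23)), the SoxB1 factor gene Sox1 (-5.57 (SE 0.23)) and the cyclooxygenase gene Ptgs2 (-5.55 (SE 0.27)) were also among the 15 largest.

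Genes known from other cells took 3 of the 15 places. Mmp9, a gelatinase gene of osteoclasts and granulocytes (chromosome 2, 164940780 to 164955850, plus strand), had the largest difference, at 1207, 809.7 and 532 CPM in the vestibule and 6.35, 2.66 and 3.84 CPM in the cochlea (-7.31 (SE 0.31)). Tpsb2, a mast cell tryptase gene with the close copy Tpsab1 and so uncertain in its share of reads, stood at 617, 449 and 487 CPM against 2.79, 10.1 and 3.42 CPM (-6.49 (SE 0.34)). Acp5, the tartrate-resistant acid phosphatase of osteoclasts, stood at 221, 86.6 and 81.5 CPM against 1.52, 1.46 and 0.641 CPM (-5.76 (SE 0.37)), and vestibular replicate 1 was highest for both Mmp9 and Acp5. All 15 vestibular genes stayed past 8-fold with the corrected difference, the lowest being Lbx2 at -4.23, and without vestibular replicate 1. Of the called genes with the highest vestibular levels, Slc17a8 and Shtn1 kept 8-fold after correction, and Apoe (-3.71, corrected -2.17), Stab1 (-3.43, -2.58), Psap (-3.29, -2.33), Fbxo2 (-4.24, -2.58) and Tubb4b (-3.07, -2.10) did not, and Tubb4b was also not called without cochlear replicate 1 (-2.997).

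Transcription factors that pattern the inner ear held calls in both directions. Of 44 measured members, 15 passed the test with higher levels in the cochlea and 23 with higher levels in the vestibule, of which 2 and 9 were called at 8-fold, and the median log2 difference was -0.69. The median was 0.25 with the corrected difference, so the direction of the list as a whole is not fixed. Gata3, described above, was 1 of the 2 cochlear calls. Emx2, which sets bundle orientation in the maculae, passed the test with 36.6, 20.4 and 28.1 CPM against 4.78, 5.08 and 6.74 CPM (2.14 (SE 0.26)), as did the orphan receptor gene Nr2f1 with 271, 266 and 225 CPM against 37.9, 52.3 and 36.5 CPM (2.57 (SE 0.17), corrected 4.18). Cofactor gene Eya1 was higher in the cochlea by 2.06 (SE 0.15). In each of these genes the 3 cochlear libraries lay above the 3 vestibular ones.

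Of the factors called higher in the vestibule, Hmx3 and Hmx2, paired homeobox genes of the vestibular territory, were almost unread in the cochlea. Hmx3 stood at 10.7, 13.3 and 20.9 CPM in the vestibule and 0.127, 0.133 and 0.107 CPM in the cochlea, the latter a single read in each library (-3.78 (SE 0.27)). Hmx2 stood at 9.64, 7.47 and 11.3 CPM against 0.127, 0 and 0.107 CPM (-3.26 (SE 0.23)). Both differences shrank below 8-fold when corrected, to -1.85 and -2.23. Skor1, a SKI-family corepressor gene, stood at 685, 463 and 486 CPM against 17.5, 15.3 and 12.9 CPM (-5.06 (SE 0.18), corrected -3.32), and the zinc finger gene Zic1 at 49.1, 71.4 and 81.1 CPM against 1.91, 4.65 and 3.84 CPM (-3.96 (SE 0.29), corrected -4.42). Sox2, which maintains sensory progenitors and supporting cells, stood at 140.0, 127 and 155 CPM against 10.7, 8.10 and 14.3 CPM (-3.59 (SE 0.20), corrected -3.36). These 3 kept 8-fold when corrected. T-box genes made up 3 of the 9 calls: Tbx2 (-3.76 (SE 0.17)), Tbx1 (-3.53 (SE 0.25)) and Tbx3 (-3.18 (SE 0.27)), the last not called without vestibular replicate 3 (-2.93), with corrected differences of -1.88, -1.68 and -2.46. The ninth, Gbx2 (-3.79 (SE 0.34)), is uncertain because it shares 43.5% of its exon bases. Lmx1a did not pass (22.1, 27.8 and 17.4 CPM in the cochlea and 20.2, 33.4 and 26.3 CPM in the vestibule, -0.24 (SE 0.24), limma, Benjamini-Hochberg adjusted p = 0.379).

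Gfi1, the gene that drives Cre, was itself lower in the cochlea. It stood at 165, 106 and 126 CPM in the cochlea and 534, 449.8 and 483 CPM in the vestibule, a difference of -1.90 (SE 0.18) (limma, Benjamini-Hochberg adjusted p = 6.08e-06), or -0.53 corrected. Among general hair cell transcription factors, 9 of 18 passed with higher levels in the cochlea and 8 in the vestibule, with a median of 0.31. Atoh1, which starts hair cell differentiation, passed with higher values in the cochlea (52.97, 36.2 and 63.9 CPM against 31.8, 17.5 and 28.9 CPM, 0.95 (SE 0.26)). Pou4f3, which hair cells need to survive, passed with lower ones (301, 225 and 260.3 CPM against 644, 506 and 526 CPM, -1.09 (SE 0.17)), and so did Lhx3 (-2.76 (SE 0.22)). The lowest cochlear library of Atoh1 lay just above the highest vestibular one, while the organs were clearly apart for Pou4f3 and Lhx3. Together the 9 general hair cell markers reached 4349 to 5096 CPM in cochlear and 8834 to 9526 CPM in vestibular libraries, and none of them was at 0. Otof, whose values are given below, made up much of the vestibular sum, so the sums do not describe the 9 markers alike. Of these, 3 passed with higher levels in the cochlea and 5 in the vestibule, with a median of -1.09, or -0.39 corrected.

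Outer hair cell genes lay on both sides. Of 14 measured members, 7 passed the test with higher levels in the cochlea and 6 with higher levels in the vestibule, of which 4 and 1 were called at 8-fold, and the median log2 difference was 1.06. Slc26a5, which encodes prestin (chromosome 5, 21810655 to 21865604, minus strand), stood at 24.01, 13.3 and 17.1 CPM in the cochlea and 0, 0.294 and 0 CPM in the vestibule (4.10 (SE 0.27), corrected 3.82). Its only vestibular reads were in replicate 2. Lmod3, a leiomodin of actin filaments, stood at 53.6, 18.7 and 26.6 CPM against 0.625, 0.545 and 0.579 CPM (4.29 (SE 0.35)), and Strip2 at 298, 112 and 197 CPM against 10.2, 12.1 and 13.2 CPM (3.88 (SE 0.29)). Bcl11b, a zinc finger repressor gene, stood at 39.5, 40.4 and 35.2 CPM against 2.50, 5.45 and 1.43 CPM (3.37 (SE 0.33)). All 4 kept 8-fold when corrected. Insm1, which prevents outer hair cells from taking the inner fate, passed at 16.9, 18.6 and 12.9 CPM against 0.804, 4.07 and 0.613 CPM (2.79 (SE 0.40), corrected 4.59), and Ikzf2, a regulator of outer hair cell maturation, at 53.7, 56.4 and 61.5 CPM against 6.92, 17.2 and 20.7 CPM (1.99 (SE 0.32)). The 6 members on the vestibular side were Ocm, called as above, the claudin gene Cldn9 (-2.34 (SE 0.17)), Sri (-1.68 (SE 0.14)), Tmem255b (-1.65 (SE 0.13)), Chrna9 (-1.18 (SE 0.15)) and its partner in the nicotinic receptor, Chrna10 (-1.87 (SE 0.17)), the last with 39.00% of its exon bases shared. The summed level of the list was 553 to 826 CPM in cochlear and 1227 to 1394 CPM in vestibular libraries.

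Genes known from inner hair cells lay on the vestibular side. Of 11 measured members, 1 passed the test with higher levels in the cochlea and 9 with higher levels in the vestibule, of which 0 and 6 were called at 8-fold, and the median log2 difference was -3.09. Slc17a8, the vesicular glutamate transporter VGLUT3 (chromosome 10, 89574020 to 89621253, minus strand), stood at 961, 1198 and 1326 CPM in the vestibule and 83.1, 61.3 and 81.8 CPM in the cochlea (-3.93 (SE 0.18), corrected -4.47). Otof, which encodes otoferlin, the calcium sensor of hair cell exocytosis, stood at 4709, 4582 and 5021 CPM against 656, 554 and 660.3 CPM (-2.94 (SE 0.24)), just short of 8-fold. Atp2a3, an endoplasmic reticulum calcium pump, stood at 486, 433 and 461 CPM against 23.8, 14.6 and 22.00 CPM (-4.47 (SE 0.18)). For these genes the lowest vestibular library was 11.6, 6.94 and 18.2 times the highest cochlear one. Dnajc5b, a cysteine string protein gene (-4.84 (SE 0.21)), the shootin gene Shtn1 (-3.09 (SE 0.16)), Fgf8 (-3.28 (SE 0.24), corrected -1.54) and Tbx2 were the other calls. Slc7a14 was the member higher in the cochlea (196, 128 and 152 CPM against 61.6, 63.8 and 60.2 CPM, 1.32 (SE 0.17)). Outer and inner hair cell genes here are names from the cochlea, and vestibular hair cells express several of the latter, Otof, Slc17a8 and Calb2 among them.

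Genes known from vestibular hair cells were called on their own side where they were called at all. Of 14 measured members, 3 passed the test with higher levels in the cochlea and 8 with higher levels in the vestibule, of which 0 and 6 were called at 8-fold, and the median log2 difference was -1.80. Beside Ocm, Skor1 and Sox2 the calls were Adam11, a catalytically inactive ADAM protein gene (362, 282 and 263 CPM against 15.1, 15.4 and 11.96 CPM, -4.32 (SE 0.17), corrected -2.77), the potassium channel gene Kcna10 (475, 482 and 473 CPM against 42.9, 36.4 and 29.9 CPM, -3.69 (SE 0.15)) and Spp1, which encodes osteopontin (1347, 1035 and 1042 CPM against 29.3, 48.7 and 37.9 CPM, -4.87 (SE 0.20)). Spp1 is also a gene of bone and macrophages, and 18.8% of its exon bases are shared, which makes it uncertain. Calb2, which encodes calretinin, passed without a call (134, 103 and 93.2 CPM against 47.00, 22.04 and 21.8 CPM, -1.91 (SE 0.28)). Several markers used for vestibular hair cells did not lie on that side. Anxa4 (0.69 (SE 0.14)) and Cryab (1.68 (SE 0.22), 17.04% shared) passed with higher levels in the cochlea, and the extracellular matrix gene Tnc (0.63 (SE 0.29)) did not pass. Pvalb passed too, by 0.47 (SE 0.15).

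Hair bundle and mechanotransduction genes tended to the vestibular side with few large differences. Of 44 measured members, 6 passed the test with higher levels in the cochlea and 27 with higher levels in the vestibule, of which 1 and 4 were called at 8-fold, and the median log2 difference was -0.78. Espn, the actin bundling protein espin (chromosome 4, 152120331 to 152152371, minus strand), stood at 829.7, 588 and 579.7 CPM in the vestibule and 38.9, 42.2 and 37.4 CPM in the cochlea (-4.02 (SE 0.17)), and Fscn2, a second bundler, at 297, 200.4 and 207 CPM against 21.5, 17.4 and 13.99 CPM (-3.66 (SE 0.20)). Twinfilin gene Twf2 (-3.01 (SE 0.22)) and Tomt (-4.83 (SE 0.22)) were the other calls, the latter with 69.3% of its exon bases shared. When corrected, Espn came to -2.54, Fscn2 to -2.16 and Twf2 to -1.73, each under 8-fold. Twf2 was not called without cochlear replicate 2 (-2.85) or vestibular replicate 1 (-2.77). Myo3a, a motor of stereocilia tips, was the call in the other direction (245, 186 and 249 CPM against 14.4, 21.5 and 22.2 CPM, 3.50 (SE 0.19), corrected 2.59). The tip link pair did not move as one: Pcdh15 passed with higher levels in the cochlea (1.29 (SE 0.20), but -0.45 when corrected) and Cdh23 did not pass (0.39 (SE 0.22), limma, Benjamini-Hochberg adjusted p = 0.125). The channel gene Tmc1 had 39.5, 46.3 and 55.7 CPM in the vestibule and 27.1, 11.4 and 19.2 CPM in the cochlea (-1.32 (SE 0.28)), while Tmc2 (-0.70 (SE 0.26)) had overlapping libraries. The channel subunit genes Cib2 (-0.36 (SE 0.21)) and Tmie (-0.33 (SE 0.16)) did not pass, and both had the opposite sign when corrected (0.40 and 0.83).

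The list of synapse, channel and calcium buffer genes held large differences in both directions. Of 25 measured members, 7 passed the test with higher levels in the cochlea and 15 with higher levels in the vestibule, of which 3 and 4 were called at 8-fold, and the median log2 difference was -1.18. Rims2, an active zone scaffold, was higher in the cochlea (174, 158 and 191 CPM against 12.9, 10.1 and 13.7 CPM, 3.73 (SE 0.16), corrected 3.29), and so was piccolo gene Pclo (132, 170.0 and 170.0 CPM against 14.6, 17.8 and 24.5 CPM, 3.01 (SE 0.20), corrected 1.38). The Pclo call was lost without cochlear replicate 2 (2.95), cochlear replicate 3 (2.95), vestibular replicate 1 (2.84) or vestibular replicate 2 (2.98). With Calb1 these were the 3 cochlear calls, and Ocm, Atp2a3, Slc17a8 and Kcna10 the 4 vestibular ones. The calcium-activated potassium channel gene Kcnma1 passed with lower cochlear levels (13.8, 14.1 and 14.7 CPM against 55.8, 61.7 and 66.6 CPM, -2.03 (SE 0.16), corrected -3.43), one of the genes whose difference grew with the correction.

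Genes of motile axonemes were higher in the vestibule across several families. Dyneins are the motors, tektins the ribbon proteins of doublet microtubules, and radial spoke and CFAP proteins the regulatory complexes of such axonemes. The list joins all genes of these families in the files and was drawn up after axonemal genes had been seen among the calls, so its counts are a description. Of 56 measured members, 5 passed the test with higher levels in the cochlea and 44 with higher levels in the vestibule, of which 0 and 12 were called at 8-fold, and the median log2 difference was -1.66. Dnah5, an outer arm dynein heavy chain (chromosome 15, 28203752 to 28472052, plus strand), stood at 111, 168 and 216 CPM in the vestibule and 0.889, 0.929 and 1.92 CPM in the cochlea (-6.19 (SE 0.28)). Tekt4 stood at 78.6, 52.6 and 55.6 CPM against 1.02, 0.929 and 1.17 CPM (-4.93 (SE 0.23)). Cfap161 stood at 103, 123 and 119.8 CPM against 4.70, 5.84 and 6.41 CPM (-4.13 (SE 0.18)). The lowest vestibular library was 57.8, 44.8 and 16.1 times the highest cochlear one. The inner arm dynein gene Dnah10 (-3.82 (SE 0.22)), Dnah9 (-3.33 (SE 0.17)), Tekt2 (-4.59 (SE 0.15), 20.8% shared), Cfap46 (-3.29 (SE 0.21)), Cfap52 (-3.26 (SE 0.14)), Cfap126 (-3.23 (SE 0.20)), Cfap58 (-3.15 (SE 0.25)) and Drc7 of the nexin-dynein complex (-3.71 (SE 0.17)) were called as well. Cfap73 was listed at 0 in all 3 cochlear libraries and at 7.72, 6.33 and 10.04 CPM in the vestibule. Cfap58 was not called without cochlear replicate 3 (-2.90), nor Cfap73 without vestibular replicate 3 (-2.9996). The list median was -1.73 with the corrected difference, which called 13 members, and in the mutants, from separate libraries, 19 members were called. Respiratory and middle ear epithelium also bears such axonemes, and of the 10 markers on its list Foxj1, Ltf and Muc5b entered the comparison. Together they reached 39.4 to 44.7 CPM in cochlear and 272 to 376 CPM in vestibular libraries. Foxj1 is described below. Ltf, the lactoferrin gene, was higher in the vestibule (12.7, 24.7 and 16.1 CPM against 2.92, 5.71 and 3.20 CPM), and Muc5b, a mucin gene, higher in the cochlea (11.9, 5.44 and 9.72 CPM against 1.47, 1.72 and 2.76 CPM). The basal cell keratin gene Krt5 was at 1.07, 0.671 and 1.43 CPM in the vestibule and at 0 in the cochlea. Trp63, also on the list, had the higher mean in the cochlea (0.508, 1.33 and 1.28 CPM against 0.134, 0.294 and 0.749 CPM), with overlapping libraries. Krt15 was at 0.0446, 0 and 0.613 CPM in the vestibule and 0.127, 0 and 0.107 CPM in the cochlea. The airway secretory gene Bpifa1 was at 0.580, 0.252 and 0.0340 CPM in the vestibule and 0 in the cochlea, and Sftpd was at 0 in all 6 libraries. Their part in the axonemal values was not tested.

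RFX factors and FOXJ1 are known regulators of cilium genes, and RFX proteins bind the X-box, of which GTTGCC is a known part. Foxj1 was called higher in the vestibule (362, 245 and 278 CPM against 28.5, 33.6 and 26.5 CPM, -3.27 (SE 0.17), corrected -1.54). Rfx2 passed with higher vestibular values (26.2, 24.1 and 20.7 CPM against 3.81, 9.69 and 7.48 CPM, -1.70 (SE 0.29)), whereas Rfx3 passed with higher cochlear ones (387, 391 and 295 CPM against 92.5, 157 and 140.2 CPM, 1.48 (SE 0.21), but -0.064 when corrected). The 250 bases before each RefSeq start site (GRCm38.p6) were searched on both strands for GTTGCC. It was present in 10.4% of all 32851 windows and 10.7% of the windows of protein-coding genes in the comparison. Of the axonemal families, 46 of 56 genes had an entry, and 18 of their 53 windows (34.0%) held it, as did 6 of 15 windows of the called members. For comparison, 15.5% of the windows of protein-coding genes called higher in the vestibule and 11.7% of those called higher in the cochlea held it. A gene can have several windows, so windows are not separate units. Counted by gene, 16 of the 46 axonemal genes, 5 of 11 called members and 3195 of all 27025 genes had it. Among protein-coding genes called higher in the vestibule and in the cochlea, 56 of 314 and 14 of 121 had it. The other patterns searched in the same way were AGATAA, the E-box forms CAGCTG and CAGATG, the short runs TAAATCA and TGATTAAT and a longer form of the Gfi1 motif, none of which is in more than 8 of the 53 axonemal windows. Longer forms of the X-box did not all follow GTTGCC: 3 stricter ones were in 2, 0 and 1 of the 53 windows and in 0 of the 15, against 0.469%, 0.110% and 0.244% of all windows, while a looser one was in 15 of the 53 and 7 of the 15, against 2.75%. A match describes the letters and is not a bound site. The last 100 bases before the start of 4 called members are shown because they hold the pattern, which is in capitals on either strand (GTTGCC or its reverse complement GGCAAC).
Cfap161 on chromosome 7 at chr7:83794840-83794939, minus strand: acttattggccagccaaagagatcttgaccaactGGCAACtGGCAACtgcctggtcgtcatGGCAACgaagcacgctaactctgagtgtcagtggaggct
Cfap46 on chromosome 7 at chr7:139683816-139683915, minus strand: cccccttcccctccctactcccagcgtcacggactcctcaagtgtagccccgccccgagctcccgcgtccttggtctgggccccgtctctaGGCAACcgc
Cfap58 on chromosome 19 at chr19:47937612-47937711, plus strand: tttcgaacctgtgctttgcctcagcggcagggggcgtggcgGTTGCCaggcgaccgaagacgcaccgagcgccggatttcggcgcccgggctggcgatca
Dnah10 on chromosome 5 at chr5:124724985-124725084, plus strand: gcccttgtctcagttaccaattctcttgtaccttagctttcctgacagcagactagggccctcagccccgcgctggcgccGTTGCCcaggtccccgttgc
Cfap161 held 3 matches within this stretch and the other genes 1 each.

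Genes of the acellular membranes lay on both sides. Among tectorial membrane genes 4 of 7 passed with higher levels in the cochlea and 3 in the vestibule. Tecta was called, as above, and Tectb, the beta-tectorin gene, passed at 294, 225 and 256 CPM in the cochlea against 43.7, 62.1 and 68.3 CPM in the vestibule (2.15 (SE 0.19)). Otog, which encodes otogelin of both tectorial and otolithic membranes, lay on the other side at 115, 126 and 207 CPM against 353, 588 and 963 CPM (-2.01 (SE 0.34)), and so did Otoa, the otoancorin gene of attachment zones (-1.83 (SE 0.17)). Of 11 measured genes of otoconia, their membrane and the cupula, 2 passed the test with higher levels in the cochlea and 7 with higher levels in the vestibule, of which 0 and 5 were called at 8-fold, and the median log2 difference was -1.43. Otoconia need a NADPH oxidase complex, and 3 genes of it were called higher in the vestibule. Nox3, the catalytic subunit (chromosome 17, 3635240 to 3696261, minus strand), stood at 22.3, 27.01 and 29.1 CPM in the vestibule and 1.02, 0.266 and 0.214 CPM in the cochlea (-4.21 (SE 0.27), corrected -4.12). Cyba, the p22phox subunit also used by phagocytes, stood at 282, 221 and 195 CPM against 10.7, 12.9 and 8.01 CPM (-4.35 (SE 0.20)), and Noxo1, the organiser, differed by -3.65 (SE 0.35) with 70.4% of its exon bases shared. Otol1, the otolin of the otoconial matrix, stood at 49.7, 106 and 88.05 CPM against 4.95, 7.17 and 6.51 CPM (-3.45 (SE 0.27)), and Zpld1, a cupula protein gene, at 80.04, 159 and 144 CPM against 17.8, 10.8 and 15.6 CPM (-3.001 (SE 0.27)). Vestibular replicate 1 was the lowest of the vestibular libraries for Otol1, Zpld1 and Otog, and Zpld1 was not called without cochlear replicate 2 (-2.81), vestibular replicate 2 (-2.81) or vestibular replicate 3 (-2.89). Oc90, the main otoconial matrix protein gene, passed with 604, 1204 and 1544 CPM against 334, 335 and 513 CPM (-1.43 (SE 0.33)), and Otor with higher cochlear levels (1.09 (SE 0.23), but -0.013 when corrected).

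Genes of the cochlear duct floor lay mostly on the cochlear side. Of 20 measured members, 13 passed the test with higher levels in the cochlea and 5 with higher levels in the vestibule, of which 4 and 0 were called at 8-fold, and the median log2 difference was 1.46. Lgr5, a Wnt co-receptor and progenitor marker of cochlear supporting cells, stood at 94.3, 123 and 109 CPM in the cochlea and 3.66, 7.13 and 8.51 CPM in the vestibule (3.94 (SE 0.26), corrected 2.97). Fst, the activin antagonist follistatin of the apical duct, stood at 14.5, 9.03 and 26.3 CPM against 0.670, 1.05 and 0.375 CPM (3.27 (SE 0.35)), and the nuclear receptor gene Rorb at 23.4, 14.5 and 12.3 CPM against 0, 1.17 and 0.102 CPM (3.68 (SE 0.35)). Epyc, a leucine-rich proteoglycan gene of cochlear supporting cells, stood at 147, 154 and 179 CPM against 0.937, 1.26 and 2.42 CPM (6.02 (SE 0.24)), a value in doubt since other genes overlap 40.6% of its exon bases. The organs were apart in all 4 genes, with the widest cochlear spread in Fst, which was not called without cochlear replicate 3 (2.89). The ligand gene Bmp4 (2.45 (SE 0.25), corrected 3.002), the receptor gene Fgfr3 (2.21 (SE 0.27), corrected 3.22) and Dkk3 (2.31 (SE 0.19)) passed on the same side, and Bmp2 (-2.58 (SE 0.23)) and the matrilin gene Matn4 (-2.56 (SE 0.32)) on the vestibular side. Inhba, which encodes the activin subunit that follistatin binds, passed at 45.1, 35.98 and 19.5 CPM against 4.02, 3.82 and 2.66 CPM (2.88 (SE 0.31)).

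Supporting cell, Notch and ion transport lists held a few vestibular calls. Of 19 measured supporting cell genes, 7 passed the test with higher levels in the cochlea and 9 with higher levels in the vestibule, of which 0 and 3 were called at 8-fold, and the median log2 difference was -0.21, or 0.54 corrected. Lfng, a glycosyltransferase that modifies Notch receptors, stood at 118, 89.3 and 89.04 CPM in the vestibule and 6.22, 6.11 and 8.97 CPM in the cochlea (-3.63 (SE 0.20)), and the calcium-binding protein gene S100a1 at 666, 676 and 685 CPM against 60.2, 56.7 and 52.4 CPM (-3.56 (SE 0.13)). With Sox2 these were the 3 calls, while the connexin gene Gjb2 passed with higher cochlear levels (2.17 (SE 0.15)). Lfng, which came to -2.14 when corrected and so lost the call, was the only call among 19 Notch pathway genes, of which 3 and 10 passed with higher cochlear and vestibular levels (median -0.87, but 0.12 corrected). The Notch ligand genes Jag2 (-1.91 (SE 0.14)) and Dll1 (-1.82 (SE 0.19), 20.5% shared) were among the latter. Of 14 ion transport genes of the stria vascularis and of vestibular dark cells, 9 passed with higher vestibular levels and 1 with higher cochlear ones. The carbonic anhydrase gene Car12 (269.6, 316 and 307 CPM against 24.9, 19.9 and 18.4 CPM, -3.77 (SE 0.15)) and the barttin gene Bsnd (9.20, 16.7 and 12.2 CPM against 0.508, 0.797 and 0.641 CPM, -3.02 (SE 0.26)) were called, the latter not without cochlear replicate 1 (-2.96) or vestibular replicate 2 (-2.82).

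Neuronal genes lay mostly on the cochlear side. Of 13 measured neuronal transcription factors 10 passed with higher levels in the cochlea and none in the vestibule (median 1.15). Ebf2 was called at 46.5, 44.9 and 20.6 CPM against 4.24, 3.57 and 1.26 CPM (3.26 (SE 0.39)), and Ebf1 passed at 758, 918 and 552 CPM against 83.97, 119.6 and 87.5 CPM (2.91 (SE 0.21)). Of 30 cytoskeletal, RNA-binding and synaptic genes of neurons, 17 and 3 passed with higher cochlear and vestibular levels. Besides Dcx, the RNA-binding protein genes Celf3 (3.44 (SE 0.33)) and Elavl2 (3.02 (SE 0.32)) and the stathmin gene Stmn2 (3.09 (SE 0.38)) were called higher in the cochlea. These calls sat close to 8-fold: Ebf2 was not called without vestibular replicate 3 (2.88), Elavl2 without cochlear replicate 2 (2.80), cochlear replicate 3 (2.87) or vestibular replicate 3 (2.94), and Stmn2 without cochlear replicate 3 (2.81) or vestibular replicate 3 (2.75). Ganglion neuron markers differed in direction between the median and the sum. Their median was 0.44, or 0.82 corrected, and 6 and 3 of 14 passed with higher cochlear and vestibular levels. Their sum was higher in the vestibule, at 1469 to 1636 CPM in cochlear and 1683 to 1903 CPM in vestibular libraries. The sodium channel gene Scn9a was called higher in the cochlea (28.8, 47.8 and 49.3 CPM against 0.848, 1.93 and 0.545 CPM, 4.37 (SE 0.31)), and Slc17a6, the transporter VGLUT2, higher in the vestibule (74.1, 110.2 and 115 CPM against 7.24, 12.9 and 8.01 CPM, -3.29 (SE 0.24)).

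**Figure D4:**
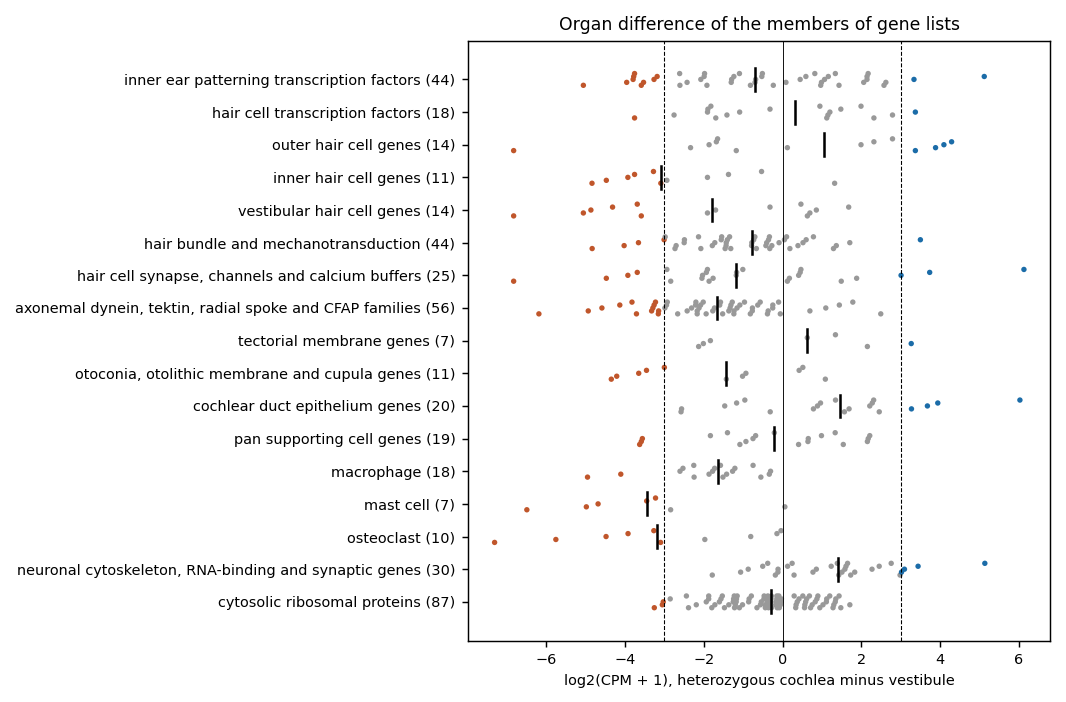
log2(CPM + 1) difference of cochlea minus vestibule for each measured member (point) of 17 gene lists, with the number of members in brackets, the list median as a vertical bar and dashed lines at 8-fold. Blue and orange points are called higher in the cochlea and in the vestibule; medians run from -3.45 for mast cell genes to 1.46 for cochlear duct genes.

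Markers of several non-sensory cell types were higher in the vestibular pull-down. Of 18 macrophage markers 15 passed with higher vestibular levels and none with higher cochlear ones, and their sum was 2963 to 3601 CPM in cochlear and 9170.1 to 11608 CPM in vestibular libraries. C1qa, a complement subunit gene, stood at 992, 587 and 522 CPM against 17.8, 26.3 and 19.1 CPM (-4.95 (SE 0.24)), and the scavenger receptor gene Cd163 at 293, 453 and 421 CPM against 16.8, 23.2 and 24.6 CPM (-4.11 (SE 0.20)). The other subunits of the same complex differed less, C1qb by -2.25 (SE 0.18) and C1qc by -2.25 (SE 0.24). Mast cell markers reached 131 to 181 CPM in cochlear and 1576 to 1843 CPM in vestibular libraries, with 5 of 7 called. These were Tpsb2, the protease genes Mcpt4 (259, 203 and 292 CPM against 5.21, 8.50 and 7.37 CPM, -4.98 (SE 0.20)), Cma1 (-4.68 (SE 0.21)) and Cpa3 (-3.45 (SE 0.32)), and the receptor gene Mrgprb1 (-3.23 (SE 0.36)), the last not called without cochlear replicate 1 (-2.90) or vestibular replicate 3 (-2.9996). Tpsab1 was listed at 0 in all 3 cochlear libraries.

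The list of osteoclast genes was drawn up after Mmp9 and Acp5 had been seen among the calls, so its counts and sums are a description. Its genes summed to 192 to 207 CPM in cochlear and 1060.2 to 2158 CPM in vestibular libraries, and 6 of 10 were called higher in the vestibule. Ctsk, the collagen-degrading protease cathepsin K, stood at 350.1, 147 and 168 CPM against 10.2, 6.64 and 8.22 CPM (-4.48 (SE 0.30)), with vestibular replicate 1 above both the other libraries. The fusion gene Dcstamp was listed at 0 in the cochlea and at 13.6, 6.54 and 4.70 CPM in the vestibule, and Ocstamp differed by -3.27 (SE 0.37). Atp6v0d2, a proton pump subunit gene, differed by -3.92 (SE 0.34). Dcstamp was not called without vestibular replicate 1 (-2.71), nor Ocstamp without vestibular replicate 1 (-2.82). Bone markers summed to 79.3 to 129 CPM and 1074 to 1403 CPM, and in the vestibule Spp1 made up most of the sum. Whether these cells carried the tag, and how their share moves the level of each hair cell gene, was not tested.

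Further cell type markers were summed in the same way. Granulocyte markers summed to 32.5 to 58.8 CPM and 76.5 to 105 CPM, lymphocyte markers to 10.1 to 21.9 CPM and 31.96 to 58.1 CPM, melanocyte markers to 111 to 115 CPM and 138 to 155 CPM, and skeletal muscle markers to 2.03 to 3.68 CPM and 10.9 to 13.4 CPM, with no call. Schwann and satellite glia markers summed to 276 to 364 CPM and 556 to 658 CPM. Endothelial markers summed to 203 to 233 CPM and 118 to 156 CPM, but a single gene, Emcn, made up much of the cochlear sum. Of the 9 markers, 3 passed with higher cochlear and 4 with higher vestibular levels, with a median of -0.37, or -0.011 corrected. Emcn, which encodes endomucin, was called higher in the cochlea (131, 133 and 125 CPM against 3.84, 6.33 and 4.22 CPM, 4.52 (SE 0.20)), whereas Kdr (-1.93 (SE 0.35)) and Cldn5 (-1.93 (SE 0.29)) passed on the vestibular side. Mesenchymal markers summed to 1589.7 to 2004 CPM and 2001 to 2658 CPM, with the versican gene Vcan called higher in the cochlea (270.2, 268 and 346 CPM against 14.6, 46.3 and 50.3 CPM, 3.13 (SE 0.38), corrected 1.74, and not called without vestibular replicate 1 (2.58)), and cartilage markers to 2230.4 to 2824 CPM and 2776 to 3426 CPM with no call. Erythroid markers overlapped between organs (3615 to 4360.1 CPM and 2826 to 8157 CPM), and the near-identical alpha globin copies Hba-a1 (-2.59 (SE 0.32)) and Hba-a2 (1.51 (SE 0.45)) moved in opposite directions, so neither value is taken as the gene's own.

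Mitochondrially encoded genes reached 33207 to 78544 CPM in cochlear and 2731 to 8623 CPM in vestibular libraries. The mitochondrial ribosomal RNA gene mt-Rnr2 stood at 37496, 36855 and 21489.7 CPM in the cochlea and 45.8, 105 and 40.04 CPM in the vestibule (9.04 (SE 0.38)), the largest difference of any gene, and mt-Rnr1 differed by 8.33 (SE 0.36). The coding transcript mt-Nd4 differed by 1.81 (SE 0.34). Cytosolic ribosomal protein genes had a median of -0.29 over 87, -0.045 corrected and -0.09 after median-of-ratios rescaling, which moved the median of all genes by 0.19. Of the 87, 18 passed with higher cochlear and 35 with higher vestibular levels, of which 0 and 3 were called. Their sum was 2469 to 2600 CPM in cochlear and 4434 to 5133 CPM in vestibular libraries. Immediate early genes had 9 of 16 higher in the vestibule and 1 in the cochlea, with Junb (63.5, 60.8 and 25.3 CPM against 2.92, 2.66 and 2.24 CPM, -3.71 (SE 0.33), corrected -1.92) and Jund (-3.64 (SE 0.29), corrected -1.65, 52.6% shared) called, both lost when corrected, and cell cycle genes had 14 and 2 of 20. Their part in the other results was not tested.

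The mutant libraries gave the same comparison in separate samples made with the same pair of kits. Reads outside the listed genes made up 0.729% of mutant vestibular replicate 1 and 0.120% and 0.119% of replicates 2 and 3. No mutant library was left out as a check. In the mutants 675 genes were called higher in the cochlea (3.94%) and 502 higher in the vestibule (2.93%). These included 480 of the 551 genes called higher in the heterozygous cochlea and 348 of the 464 called higher in the heterozygous vestibule. The difference had the same sign for all 1015 genes, and the mutant libraries were apart in that direction for 549 and 464. Of the genes called without the correction, 209 and 156 kept the call with it and were also called with it in mutants. Ccdc81 (-5.94 in mutants against -6.04), Myo15b (-5.97 against -5.95), B3galt2 (6.08 against 6.03) and Gata3 (5.96 against 5.12) had similar values in both genotypes. Since the kits were paired with the organs in the same way in the mutants, this repeat does not part organ from kit.

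The organ difference itself differed between genotypes for 20 of the 551 and 30 of the 464 genes (interaction term, limma over all 12 libraries, Benjamini-Hochberg adjusted p under 0.05), and for 2.86% of all 17115 genes. Slc26a5 fell from 4.10 in heterozygotes to 0.73 in mutants, a difference of 3.37 (SE 0.41) (limma, Benjamini-Hochberg adjusted p = 4.88e-04). Pkhd1l1 went from 6.78 to 3.30, by 3.48 (SE 0.40) (limma, Benjamini-Hochberg adjusted p = 3.01e-04), with mean cochlear levels of 483 CPM in heterozygotes and 112 CPM in mutants. Among outer hair cell genes the median was 1.06 in heterozygotes and 0.10 in mutants, and among hair bundle genes -0.78 and -1.89. For axonemal families it was -1.66 and -2.11, and for cochlear duct genes 1.46 and 1.86.

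**Figure D5:**
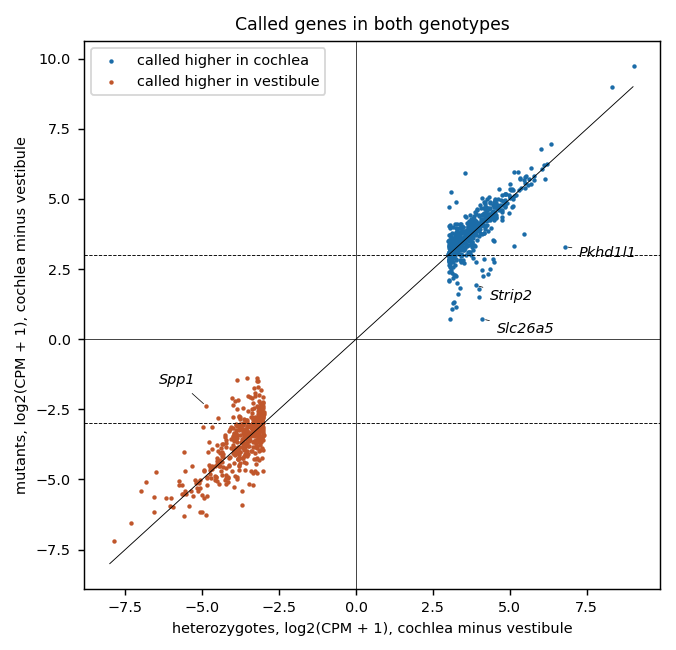
Organ difference, log2(CPM + 1) of cochlea minus vestibule, in heterozygotes (horizontal) and mutants (vertical) for the 1015 called genes, with the line of equal values and dashed lines at 8-fold in mutants. All points lie in the quadrants of equal sign; Slc26a5, Strip2 and Pkhd1l1 lie well below the line and Spp1 above it.

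Genes listed for a single organ were left out of the tests. The cochlea listed 4915 such genes, of which 348 had 1 CPM or more in all 3 heterozygous libraries, and the vestibule 1299, of which 51 did. Of the 51, 32 (62.7%) had 50% or more of their exon bases shared with another gene, against 5 (1.44%) of the 348 and 1.96% of the genes compared. The following vestibular examples, without shared bases, were chosen after their values had been seen. Skor2, the relative of Skor1, stood at 202, 125 and 122 CPM, Cib3, a calcium-binding partner of the transduction channel, at 82.6, 74.2 and 76.1 CPM, and Otop1, a proton channel gene needed for otoconia, at 4.51, 11.5 and 14.98 CPM. The absence of a gene from one organ's table does not say that it had no reads there.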

How the data were processed

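The deposited tables, 1 per library, hold CPM per gene; that the authors scaled whole read counts is read from the values. The submitters' processing notes name TopHat (no version) and the build GRCm38. Of the counting tool, strandedness and annotation nothing is given in the sources used here. All values were whole multiples of 1 read within 1e-06 (100% of values), so reads could be recovered for edgeR 4.0.16 and DESeq2 1.42.0 as alternatives. Gene positions, exon overlap, GC content and exon length came from GENCODE M21 on GRCm38 (17102 of 17115 genes matched).

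The 6 heterozygous libraries were fitted with limma 3.58.1 (trend, R 4.3.3) on log2(CPM + 1), which understates changes of low genes, with Benjamini-Hochberg adjustment over 17115 genes and no replicate block. Differences are cochlea minus vestibule, errors are limma's standard errors, and each organ has 3 libraries. The corrected difference took off a loess trend over GC content and log exon length (span 0.3). For this comparison, counts simulated for 17115 genes gave calls in the right direction for 99% of 100 genes changed 16-fold, 0% of 100 changed 4-fold and 0% of 16915 unchanged genes. The changed genes were drawn from those of higher mean level, and 4-fold lies below the 8-fold limit of a call. The unchanged genes had equal means in both organs, with no trend over kit or GC content. Their 0% is therefore not a false call rate for the real libraries. Same-numbered libraries deviated together (correlations over genes of 0.109, 0.134 and 0.338, against -0.186 to 0.051 otherwise), where the labels give the same replicate number in both organs. Alternatives were other pseudocounts, filters, scalings, the correction, the block, all 12 libraries in 1 fit, and each library left out.

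Named genes were Gfi1, the 15 largest differences and the 8 highest levels among called coding genes with under 10% shared exon bases in each direction, called members of the lists and up to 4 more per list, and members of the patterning and hair cell lists. Predicted genes were not named by this rule, and some genes it selects are not reported here. The comparison, its members, the gene lists and the tests were chosen with earlier results of these data known. Promoter windows are RefSeq sequences of GRCm38.p6.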

Additional observations from a re-analysis of the deposited data

Results flagged for a closer look

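The organ difference was compared between genotypes for each gene (interaction term in limma over all 12 libraries). The term had an adjusted p under 0.05 (limma, Benjamini-Hochberg) for 490 of the 17115 genes, and those not named in the text above are left out. A named gene is given here when the heterozygous difference minus the mutant difference had a Benjamini-Hochberg adjusted p under 0.05. Each bracket holds that value with its standard error, then the organ difference in heterozygotes and in mutants, all on the log2(CPM + 1) scale.

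Among genes called higher in the heterozygous cochlea it was positive, that is, the cochlear excess was smaller in mutants, for Pkhd1l1 (3.48, SE 0.40; 6.78 and 3.30), Cubn (1.71, SE 0.32; 5.45 and 3.74), Cdh1 (1.28, SE 0.26; 4.14 and 2.87), Slc26a5 (3.37, SE 0.41; 4.10 and 0.73), Strip2 (1.96, SE 0.42; 3.88 and 1.93), Lmod3 (1.95, SE 0.47; 4.29 and 2.34) and Scn9a (1.86, SE 0.37; 4.37 and 2.51). Among genes called higher in the heterozygous vestibule it was negative, with a smaller vestibular excess in mutants, for Car7 (-1.56, SE 0.37; -6.98 and -5.42), Ocm (-1.73, SE 0.26; -6.83 and -5.10), Atp2a3 (-1.67, SE 0.32; -4.47 and -2.80) and Spp1 (-2.48, SE 0.27; -4.87 and -2.38). It was positive, with a larger vestibular excess in mutants, for Slc17a8 (0.95, SE 0.22; -3.93 and -4.88), Kcna10 (2.24, SE 0.28; -3.69 and -5.93), S100a1 (0.85, SE 0.15; -3.56 and -4.41), Foxj1 (1.43, SE 0.30; -3.27 and -4.70), Cfap52 (1.20, SE 0.20; -3.26 and -4.46) and Drc7 (1.72, SE 0.22; -3.71 and -5.43). Of genes not called in heterozygotes, it was negative for Ltf (-1.86, SE 0.38; -1.92 and -0.07), Tpsab1 (-1.62, SE 0.34; -2.84 and -1.22) and Sri (-1.15, SE 0.17; -1.68 and -0.53). It was positive, with levels further to the vestibular side in mutants, for Slc7a14 (1.73, SE 0.22; 1.32 and -0.41), Anxa4 (1.30, SE 0.17; 0.69 and -0.61), Jag2 (1.38, SE 0.24; -1.91 and -3.29), Dll1 (1.29, SE 0.30; -1.82 and -3.12), Pvalb (2.45, SE 0.20; 0.47 and -1.99), Cdh23 (1.99, SE 0.27; 0.39 and -1.60), Tnc (1.56, SE 0.37; 0.63 and -0.93), Chrna9 (1.5, SE 0.19; -1.18 and -2.68), Tmem255b (0.97, SE 0.21; -1.65 and -2.62), Pcdh15 (1.58, SE 0.27; 1.29 and -0.28), Tmc2 (1.42, SE 0.35; -0.70 and -2.12), Chrna10 (1.74, SE 0.23; -1.87 and -3.61) and Atoh1 (1.52, SE 0.35; 0.95 and -0.57). The adjusted p-values (limma, Benjamini-Hochberg) ran from 2.02e-05 for Pvalb to 0.0459 for Tmc2. Spp1 and Dll1 and Chrna10 share exon bases with other genes and are uncertain, as is Tpsab1, a close copy of Tpsb2.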

How the results depend on the processing

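The pairs of counts below are for genes higher in the cochlea and higher in the vestibule. In every setting the ranks were taken from the CPM values, without rescaling or correction. The calls numbered 551 and 464, the calls that also moved by rank 548 and 454 and the calls also made in mutants 480 and 348. They became 1296 and 707 (ranks 756 and 638, mutants 1143 and 512) with a pseudocount of 0.25 CPM, and 124 and 208 (ranks 121 and 198, mutants 102 and 160) with 4 CPM. On the recovered reads, edgeR called 1679 and 819 (ranks 778 and 654, mutants 1510 and 612) and DESeq2 1752 and 719 (ranks 812 and 568, mutants 1586 and 534), neither of which adds 1 CPM before the fold is taken. With the GC content and length correction the counts were 345 and 263 (ranks 305 and 237, mutants 280 and 201). Leaving out 1 library gave 527 to 577 and 420 to 495 calls, 524 to 572 and 409 to 484 by rank and, against the full mutant fit, 460 to 496 and 327 to 355 in mutants. The replicate block gave 551 and 464 calls, and with the correction 345 and 263 (ranks 305 and 237, mutants 280 and 201). In this balanced design the block leaves each difference and the separation of libraries as they were. The equal counts therefore do not show whether the pairing matters. Median-of-ratios rescaling gave 638 and 356, quantile normalization 492 and 450, no filter 551 and 464, a filter of 5 CPM 549 and 459 and genes with under 10% shared exon bases 489 and 353.

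Of the 115 called genes named here, 40 lost the 8-fold call with the correction, 31 with a pseudocount of 4 CPM, 8 with median-of-ratios rescaling, 3 with quantile normalization, 1 with edgeR and 4 with DESeq2. None of these 115 changed direction under the settings tried. Among genes not called, the correction, with or without the block, reversed Otor (-0.013), Cib2 (0.40), Rfx3 (-0.064), Tmie (0.83) and Pcdh15 (-0.45), and the medians of Notch pathway (0.12), patterning (0.25), supporting cell (0.54), ligand and antagonist (0.41) and mesenchymal (-0.039) genes. Quantile normalization reversed Lmx1a (0.14) and the medians of supporting cell (0.10) and endothelial (0.0015) genes. Median-of-ratios rescaling reversed the median of ligand and antagonist genes (0.026). The cause of these changes was not tested. Depth limits levels under 3 reads, that is under 0.320 to 0.398 CPM in the cochlea.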

Other observations

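Several classes of noncoding gene held calls mostly on the cochlear side, that is in the libraries of the NuGEN kit. Of 442 unverified transcripts 171 (38.7%) were called higher in the cochlea, with a median log2 difference of 2.69. The values were 74 of 574 antisense genes (12.9%, median 1.43), 42 of 330 lincRNA genes (12.7%, median 1.32) and 13 of 70 sense intronic genes (18.6%, median 2.07). In the vestibule 1 antisense gene, 2 lincRNA genes and none of the unverified or sense intronic transcripts were called. Processed pseudogenes were called equally often on both sides, 30 and 30 of 810.

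Among 26 measured ligands and antagonists of the FGF, BMP, WNT and hedgehog pathways 10 passed with higher levels in the cochlea and 8 in the vestibule. Only Fst and Fgf8 were called, in opposite directions, and the list median was -0.16, or 0.41 with the correction.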
